A study of Mus musculus with 21 samples.

Results

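The genes described here are 34 transcripts of meningeal fibroblasts and of the extracellular matrix, out of 21872 gene symbols measured in mouse brain. They were taken by symbol from a fixed list, and that list was chosen by their values in these same libraries, in the comparison of treated with control brain at each age. The treated against control values are therefore given as a description, without support drawn from them. The comparison of the 2 ages in control brain was not the one used to choose the genes and is tested. It uses the same control libraries as that choice, so its counts are not free of it. Control mice had water and treated mice had trientine (TETA), a drug that chelates copper, and the labels call the treated condition copper-deficient. No strain, genotype, dose or route is stated in the sources used here. There were 6 control and 6 TETA libraries from embryonic day 18.5 (E18.5), and 5 control and 4 TETA libraries from 7 weeks after birth. The tissue is labelled brain throughout, and the protocol names prefrontal cortex and male animals for the later age only, so region and sex at E18.5 were taken as not stated. Nothing in the labels says whether the libraries of a group came from separate litters, so the spread between libraries may be partly technical. The main tests treated all libraries as independent, and their p-values may be too small if libraries shared a litter.

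The meninges are the membranes that wrap the brain, and their fibroblasts lay down a matrix of collagens and proteoglycans at the surface of the brain and along the vessels that enter it. Fibrillar collagens give this matrix its strength, and small leucine-rich proteoglycans bind the collagen fibrils and space them. The arachnoid layer is a barrier between blood and cerebrospinal fluid, and its cells carry solute carriers and the adhesion molecule E-cadherin. Several of the genes are also made elsewhere in the brain: Ptgds by oligodendrocytes, Fn1 by endothelium, Igfbp2 by glia and choroid plexus, and Zic1 by neurons. Copper is the cofactor of the lysyl oxidases, which cross-link collagen.

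The E18.5 libraries held 14678265 to 24308555 counts each, and those of 7 weeks 17838051 to 24035857. Levels are CPM, that is counts scaled to a common library size, with TMM factors that hold most genes level between libraries. Each comparison was fitted over all genes with edgeR's quasi-likelihood test, and a gene is called where its Benjamini-Hochberg adjusted p is under 0.05. In the E18.5 table, 1940 genes at 0 in control replicate 1-1 had counts in multiples of 11 in the other libraries and were divided by 11; Slc13a4, Slc22a6, Slc47a1 and Cdh1 are among them. RNA of a bulk sample cannot tell fewer meningeal cells from less RNA per cell.

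Promoter sequence was available for 22 of the 34 genes, from RefSeq on GRCm38.p6. A pair of promoters is shown because the genes moved in opposite directions at 7 weeks and no annotated exon lies in the 250 bases before their RefSeq starts. In GENCODE, longer transcripts of Islr start upstream of its window, which lies in an intron of these. Islr, a secreted leucine-rich repeat protein of fibroblasts, was among the lower genes, and Col5a1, the chain of type V collagen that starts fibril assembly, was the member furthest above control. Capitals mark the GC box, GGGCGG on either strand. The Islr sequence lies at chr9:58158555-58158804 on the minus strand and the Col5a1 sequence at chr2:27886175-27886424 on the plus strand, both read 5′ to 3′ towards the gene. In the GENCODE annotation of GRCm38, Islr spans 58156268 to 58204306 of chromosome 9 with 6 exon blocks, and Col5a1 spans 27886425 to 28039514 of chromosome 2 with 66.

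Islr: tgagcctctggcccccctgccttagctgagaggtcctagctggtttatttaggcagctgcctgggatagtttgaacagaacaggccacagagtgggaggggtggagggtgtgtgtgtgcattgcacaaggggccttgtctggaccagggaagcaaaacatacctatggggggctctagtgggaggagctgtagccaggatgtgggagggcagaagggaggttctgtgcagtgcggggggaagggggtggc

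Col5a1: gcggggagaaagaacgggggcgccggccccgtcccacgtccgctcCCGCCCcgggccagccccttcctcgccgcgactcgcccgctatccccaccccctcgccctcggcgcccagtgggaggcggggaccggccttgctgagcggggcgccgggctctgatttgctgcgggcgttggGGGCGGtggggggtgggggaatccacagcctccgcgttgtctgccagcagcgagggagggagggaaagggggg

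The Islr window was 59.6% G or C, held 1 CpG and had no match to any of the motifs searched. The Col5a1 window was 76.4% G or C, held 28 CpGs and had 2 GC boxes. The median over all promoters was 52% G or C. A GC box was found in 13 of the 22 member promoters and in 33% of 27025 promoters. TATAAA was found in 2 of 22 and in 13% of all, and CCAAT in 6 of 22 and in 34.5%. The forkhead core GTAAACA was found in 1 of 22 and in 3.06%, and the ZIC core CCTGCTG in 2 of 22 and in 8.33%. Both strands were searched, and a match describes letters, not a bound site.

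In control brain at 7 weeks, all 34 genes passed the filter on low counts. Divided by the exonic length of each gene, Ptgds was highest at 434 ± 29.2 CPM per kb (SD, n = 5). Ptgds makes prostaglandin D2 and is an abundant protein of cerebrospinal fluid. Mgp, an inhibitor of calcification, followed at 17.5 ± 1.83 CPM per kb, and Igfbp2, a binding protein for insulin-like growth factors, at 11.7 ± 0.952 CPM per kb. These 3 did not overlap one another or the next gene. Col6a1 (8.63 CPM per kb), Islr (8.08) and Fn1 (6.93) came next, and neighbours among these overlapped. From Slc6a20a (3.83 CPM per kb) down to Lum (1.13), every gene overlapped the next in the order. The lowest was Igf2 at 0.204 ± 0.0512 CPM per kb.

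At E18.5 the order in control brain was another one. Igfbp2 stood highest at 44.5 ± 2.55 CPM per kb (SD, n = 6), without overlap with the next. Zic1 was at 9.02 ± 2.04 CPM per kb and Fn1 at 8.30 ± 0.695, which overlapped each other, and Fbln1 stood alone below them at 5.95 ± 0.436. Slc47a1 was the lowest and had 3 reads in the 6 control libraries together. Igfbp2, Zic1 and Fn1, the top 3 here, are also made outside the meninges, so the embryonic order does not open with genes that mark meningeal cells alone. Lum, Mgp, Slc6a13, Slc13a4, Slc22a6, Slc47a1, Cdh1 and Nupr1 did not pass the filter on low counts at E18.5, which left 26 of 34 tested there.

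The age comparison asks how far these genes differ between embryonic and young adult control brain, with both tables scaled together. Its control libraries also entered the choice of the genes. The 8 genes below the E18.5 filter entered it only through 7 weeks, where they are high, so they had to come out higher and are described, with nothing read from their calls. Of the 26 genes past the filter at both ages, 18 were called higher at 7 weeks, 5 lower and 3 were not called, with a median log2 fold change of 1.34. Of all 13433 genes past it at both ages, 42.7% were called higher and 46.4% lower, with a median of -0.06. Over all 14375 genes tested, 89.5% were called, 44% higher and 45.5% lower, so a call by itself is common here. With the 8 genes included, 26 of 34 were called higher. Without TMM factors the median of all genes was -0.17, and 25 of the 34 were called higher and 5 lower, beside 5672 higher and 7299 lower of all 14375. Age, the deposited table and possibly the region of the brain cannot be told apart in this comparison. Markers of other cells differed too. Blood had 5 of 5 tested lower (median -1.99) and skeletal muscle 3 of 4 higher (1.97). Mural cells had 6 of 12 higher and 4 lower (0.15), and border macrophages 6 of 6 higher (3.05). Only 2 of the macrophage markers passed the filter at E18.5, so their calls are a description. The part of these markers in the values of the 34 genes was not tested.

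The solute carriers of the arachnoid barrier were hardly detected at E18.5, and all but Slc6a20a are among the 8 genes below the filter there. Slc13a4, a sulfate transporter, was at 0 to 0.425 CPM in the 6 embryonic libraries and at 11.2 to 15.4 CPM in the 5 libraries of 7 weeks, with 24 and 1366 reads. The age groups did not overlap, and its log2 fold change was 6.07 (SE 0.23). Slc22a6, an organic anion transporter, averaged 0.154 ± 0.207 CPM at E18.5 and 8.16 ± 0.925 CPM at 7 weeks (log2 fold change 5.55). Slc6a13, a GABA transporter, averaged 0.475 ± 0.298 and 9.62 ± 0.920 CPM (4.24). Slc6a20a, a proline transporter and the 1 carrier past the filter at both ages, rose from 0.768 ± 0.287 to 16.5 ± 1.82 CPM (4.38). Slc47a1, an exporter of organic cations, had 3 reads at E18.5 and 626 at 7 weeks, a ratio of 252.5 with a 95% interval of 86 to 1228 that covers counting error only. With the counts as deposited, the log2 fold changes were 2.701 for Slc13a4, 2.18 for Slc22a6 and 4.52 for Slc47a1. Without control replicate 3-1 of E18.5 they were 6.58 for Slc22a6 and 8.57 for Slc47a1.

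Among secreted proteins, Ptgds rose from 2.65 ± 2.02 to 754 ± 50.8 CPM, by 8.04 on the log2 scale (SE 0.17, adjusted p = 9.04e-23 in edgeR). Mgp, below the E18.5 filter, averaged 0.448 ± 0.227 and 21.9 ± 2.28 CPM (5.63), and Islr rose from 2.80 ± 0.379 to 22.9 ± 1.64 CPM (3.01). Serping1, the inhibitor of complement C1, rose by 0.77. Fbln1, a matrix glycoprotein of basement membranes, went the other way, from 24.8 ± 1.85 to 10.9 ± 1.58 CPM (-1.19). Fn1, fibronectin, was called lower by 0.12 with overlapping groups, and 8 of 16 alternatives did not call it.

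The proteoglycans Fmod, Dcn and Ogn rose with age, by 4.90, 2.60 and 1.73 on the log2 scale, and Lum, below the E18.5 filter, stood at 2.74. Bgn was at 11.3 ± 1.48 CPM at E18.5 and 11.9 ± 1.56 CPM at 7 weeks, and was not called. Of the collagens and their partners, 8 of 10 rose. Col6a1 rose by 2.88 and its partner Col6a2 by 2.22, and the type I chains rose by 2.59 (Col1a1) and 2.64 (Col1a2). Without control replicate 3-1 of E18.5, Col1a1 rose by 3.22. Pcolce, which speeds the cutting of procollagen, rose by 2.45, Mrc2, the receptor that takes up collagen fragments, by 1.43, Col12a1 by 1.24 and Col5a1 by 0.71. Col5a2 fell from 11.7 ± 1.01 to 4.78 ± 0.754 CPM. Col3a1 was at 3.27 ± 1.19 and 3.91 ± 0.781 CPM and was not called, but without control replicate 3-1 of E18.5 it was.

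Igfbp2 fell from 78.6 ± 4.54 to 22.7 ± 1.85 CPM, by 1.79 on the log2 scale (SE 0.055), and the growth factor Igf2, at 1.21 ± 0.238 and 1.23 ± 0.309 CPM, was not called. Igf2 shares 64.5% of its exonic bases with other annotated genes, so its count is uncertain. Of the transcription factors of meningeal development, Foxc1 rose by 0.87 and Foxd1 by 1.79, while Zic1 fell by 1.68 on the log2 scale. Cdh1, E-cadherin, and Nupr1, a stress-induced chromatin protein, were below the E18.5 filter. Cdh1 averaged 0.230 ± 0.221 and 2.96 ± 0.566 CPM, at a log2 fold change of 3.60 that was 0.22 and not called with the counts as deposited, and 4.28 without control replicate 3-1 of E18.5. Nupr1 stood at 5.23, and Crabp2, a carrier of retinoic acid, rose by 0.54 with overlapping groups.

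**Figure D1:**
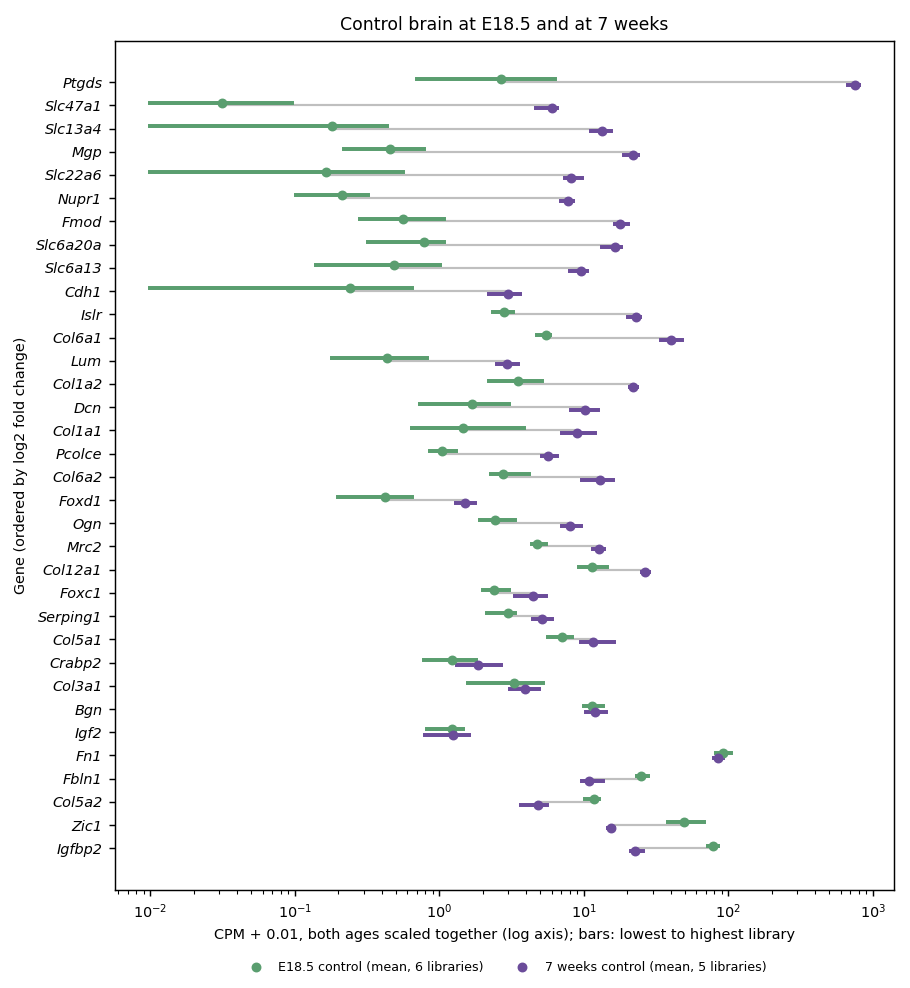
Levels of the 34 genes in control brain at E18.5 and at 7 weeks. The x axis is CPM plus 0.01 on a log scale with both ages scaled together, points are means of 6 and 5 libraries and bars run from the lowest to the highest library. Ptgds, Slc47a1 and Slc13a4 sit at the top with the widest gaps (8.04, 7.65 and 6.07 on the log2 scale), and Igfbp2, Zic1, Col5a2 and Fbln1 at the bottom are lower at 7 weeks.

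Other genes of the same kinds were taken from a pair of lists that hold none of the 34. Of 44 other meningeal fibroblast and arachnoid genes past the filter at both ages, 29 were called higher at 7 weeks and 13 lower, with a median of 0.65. Of 51 such matrix genes, 21 were higher and 23 lower, with a median of -0.05. Of the genes past it at both ages, the intermediate filament gene Vim fell by 2.37 on the log2 scale and the anion exchanger Slc26a7 by 1.71, while Prelp, a leucine-rich proteoglycan of the matrix, rose by 4.39. Others passed only through the age where they are high, which fixed their direction, and nothing is read from it. Of these, Cldn11, a claudin of the arachnoid barrier and of myelin, averaged 0.677 ± 0.437 CPM at E18.5 and 227 ± 21.8 CPM at 7 weeks (8.30). Gjb6, a connexin, stood at 8.44, Igfbp6, a binding protein for insulin-like growth factors, at 8.002, Efemp1, a fibulin, at 6.44 and Dsp, desmoplakin, at -3.29. Srpx2, also among these, had 3 reads at E18.5 and a ratio of 68.2 with a 95% interval of 22.9 to 334. The matrix gene Tnc, tenascin C, was past the filter at both ages and fell from 232 ± 19.1 to 4.59 ± 1.29 CPM (-5.65), Fbn2 by 3.93 and Mfap2, a microfibril protein, by 3.78.

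The comparison at 7 weeks sets TETA against control in postnatal brain. Of the 34 genes, 16 were called lower in TETA and 3 higher, and 15 were not called. Over all 14240 genes tested, 9.96% were called, 4.28% lower and 5.67% higher. Nothing is read from the gap between these shares, because the genes were chosen with this comparison known. The fitted log2 fold change was below 0 for 29 of 34 genes and for 49.9% of all genes, with medians of -0.36 and 0.00019. Control and TETA libraries did not overlap for 8 lower and 2 higher genes, against 4.91% and 6.26% of all genes. Without TMM factors the same 16 and 3 were called, while among all genes 67.6% of the calls were higher instead of 57.0%.

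The count fell whichever library was left out. Without TETA replicate 1, 12 of the 34 were called, 9 lower and 3 higher, with a median of -0.25, beside 1154 of all 14294 genes tested in that fit. Without TETA replicate 3, 15 were called, 14 lower and 1 higher, with a median of -0.45, beside 927 of all 14294. Without TETA replicate 2 there were 13 calls, beside 1201 of all 14310 genes. Without control replicate 3, 4 or 5 there were 14 each time, beside 1203, 1173 and 1392 of all genes. With every library in, 1418 of all genes were called. TETA replicate 1 was the lowest TETA library for 27 of the 34 genes, where 24.5% of all genes had it lowest. TETA replicate 3 was the highest TETA library for 24, where 25.7% of all genes had it highest. For 8 of the 16 lower genes it was the only TETA library that overlapped control.

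**Figure D2:**
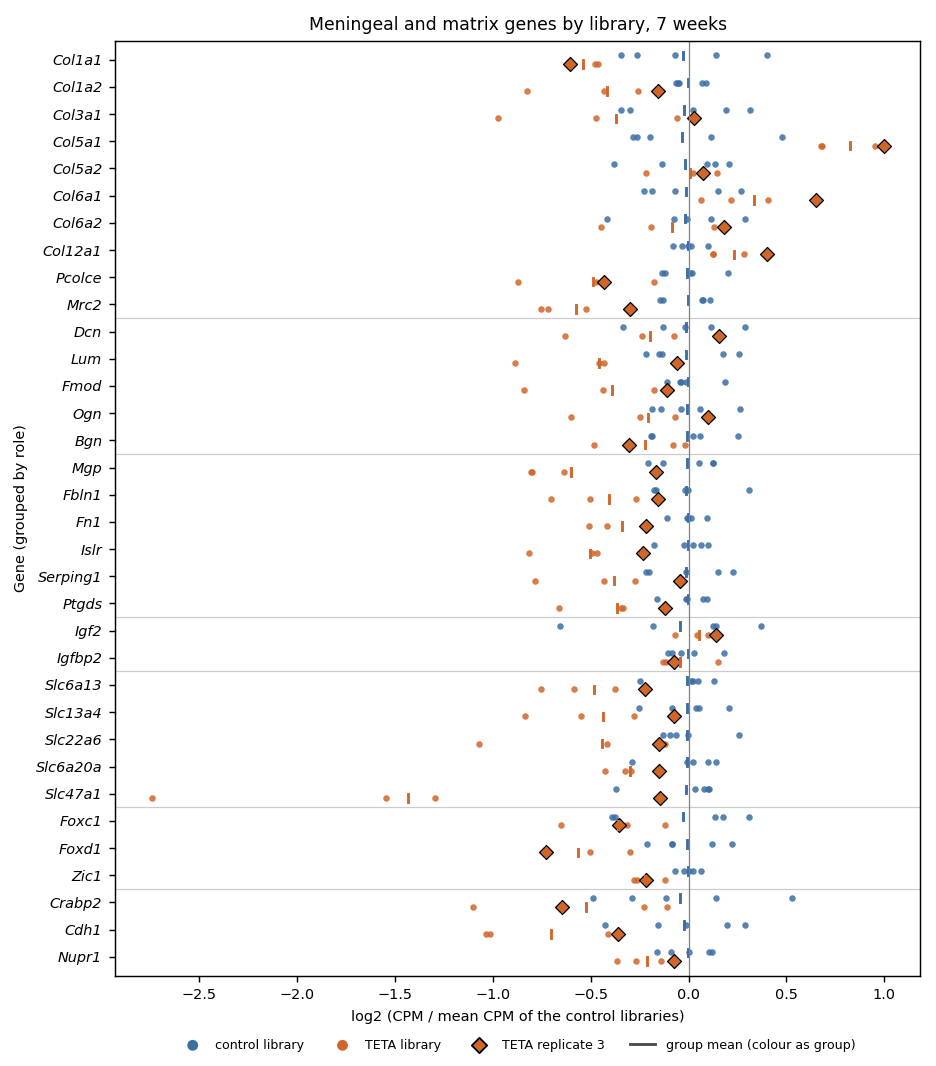
Each library's level of the 34 genes at 7 weeks, as log2 of CPM over the mean CPM of the 5 control libraries. Blue points are control and orange points TETA libraries, the diamond is TETA replicate 3, short lines are group means and grey lines part the role groups. Col5a1, Col6a1 and Col12a1 lie to the right, and the diamond lies nearest to control for most of the lower genes.

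Counts within a role group come from the same choice of genes on this comparison, so they are descriptions too, beside the 4.28% of all genes called lower and 5.67% higher. Collagens split in direction, with 4 of 10 called lower and 3 higher. Col5a1 was at 9.59, 9.14, 9.02, 11.9 and 15.3 CPM in control and at 17.6, 21.2, 21.9 and 17.6 CPM in TETA. Every TETA library was above every control library, and the log2 fold change was 0.83 (SE 0.12). Col6a1 (0.35) and Col12a1 (0.24), which link the fibrils to the surrounding matrix, were also higher, and Col6a1 was called in 8 of 14 alternatives. Mrc2 was at 11.1, 12.7, 13.04, 10.9 and 12.8 CPM in control and at 7.17, 8.42, 9.85 and 7.36 CPM in TETA. All 4 TETA libraries were below control, with a log2 fold change of -0.56 (SE 0.096).

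Col1a1 was at 7.10, 9.39, 6.71, 8.12 and 11.2 CPM in control and at 5.58, 6.19, 5.59 and 6.11 CPM in TETA. The groups did not overlap, and the log2 fold change was -0.55 (SE 0.13). Its partner chain Col1a2 (-0.40) and Pcolce (-0.47) were likewise lower without overlap, and Pcolce was called in 9 of 14 alternatives. Col3a1 (-0.32), Col5a2 (0.01) and Col6a2 (-0.07) were not called. The type V chains therefore had unlike values, with Col5a1 higher and Col5a2 at the control level.

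The proteoglycans were below control in fold, with 1 of 5 called. Lumican, Lum, was at 3.14, 2.39, 3.33, 2.50 and 2.53 CPM in control and at 1.503, 2.06, 2.67 and 2.02 CPM in TETA. Replicate 3 overlapped control, and the log2 fold change of -0.42 (SE 0.18) was not called. Fibromodulin, Fmod, was at 16.3, 16.4, 16.6, 15.5 and 19.1 CPM in control and at 9.36, 12.4, 15.6 and 14.8 CPM in TETA. It was called, at -0.37 (SE 0.11), with TETA replicate 3 level with the lowest control, and in 9 of 14 alternatives. Biglycan, Bgn, was at 9.85, 9.89, 13.4, 11.4 and 11.7 CPM in control and at 8.07, 10.7, 9.12 and 11.1 CPM in TETA. The groups overlapped for Bgn (-0.21), as for Dcn (-0.17) and Ogn (-0.19).

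Of the other secreted and matrix proteins, 5 of 6 were called lower, beside 4.28% of all genes, in a group taken from the list chosen on this comparison. Mgp was at 18.9, 21.6, 22.6, 17.98 and 22.6 CPM in control and at 11.9, 11.9, 18.5 and 13.4 CPM in TETA. Only TETA replicate 3 reached the control range, and the log2 fold change was -0.57 (SE 0.11). Islr was at 22.7, 21.4, 22.0, 19.2 and 23.2 CPM in control and at 12.3, 15.7, 18.4 and 15.4 CPM in TETA, without overlap (-0.49, SE 0.087). A share of 6.74% of the exonic bases of Islr is also in Islr2.

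Fbln1 was at 9.15, 9.22, 10.2, 10.3 and 12.8 CPM in control and at 6.36, 8.58, 9.29 and 7.31 CPM in TETA. Its overlap came from replicate 3 alone, at a log2 fold change of -0.39 (SE 0.12) that was called in 8 of 14 alternatives. Fn1 (-0.34, SE 0.055) was lower in every TETA library. Ptgds, the most abundant of the 34, had a mean of 715 ± 48.2 CPM in control and 560 ± 84.3 CPM in TETA (-0.35). Serping1 (-0.36) was not called.

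The 4 called solute carriers all overlapped control. Slc47a1 was at 6.19, 6.16, 6.07, 4.44 and 5.88 CPM in control and at 0.859, 2.34, 5.20 and 1.97 CPM in TETA. TETA replicate 1 was lowest and replicate 3 was inside the control range, and the log2 fold change of -1.14 (SE 0.27) was the widest of the 34. It was -1.78 without TETA replicate 3, and DESeq2 did not call it. Slc6a13 was at 9.28, 9.22, 7.68, 9.45 and 10 CPM in control and at 5.41, 6.08, 7.83 and 7.02 CPM in TETA. Replicate 3 alone overlapped, and the log2 fold change was -0.47 (SE 0.11).

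Slc13a4 was at 11.9, 10.6, 13.2, 12.97 and 14.6 CPM in control and at 7.09, 8.64, 12 and 10.4 CPM in TETA. Replicate 3 overlapped control here too, at a log2 fold change of -0.40 (SE 0.12) that was called in 9 of 14 alternatives. Slc6a20a (-0.29) was called in 8 of 14 alternatives, and 14.3% of its exonic bases overlap genes on the other strand. Slc22a6 (-0.40, SE 0.14) was not called.

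Foxd1, a forkhead factor of meningeal precursors, was at 1.66, 1.34, 1.34, 1.23 and 1.54 CPM in control and at 0.859, 1.00, 0.860 and 1.16 CPM in TETA. All TETA libraries were below control, but at these low counts the log2 fold change of -0.56 (SE 0.20) was not called. Zic1 (-0.22, SE 0.064) was called without overlap and kept the call in 7 of 14 alternatives. Foxc1 (-0.36) was not called. Cdh1 was at 2.79, 3.44, 2.52, 2.09 and 3.22 CPM in control and at 1.37, 1.39, 2.19 and 2.12 CPM in TETA. Replicates 1 and 2 were below all control libraries and replicates 3 and 4 were level with the lowest control, at a log2 fold change of -0.67 (SE 0.19) that was called in 9 of 14 alternatives.

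Igf2 was at 0.741, 1.51, 1.29, 1.28 and 1.03 CPM in control and at 1.203, 1.11, 1.29 and 1.25 CPM in TETA. The TETA libraries lay inside the control range (0.06, SE 0.22), and Igfbp2 was at 21.5 ± 1.76 and 21.0 ± 1.96 CPM (-0.04). Crabp2 (-0.48, SE 0.24) and Nupr1 (-0.21) were not called.

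Of 59 other meningeal fibroblast and arachnoid genes tested, 14 were called lower in TETA and 1 higher, with a median of -0.12. Aldh1a1, which makes retinoic acid, averaged 46.8 ± 5.15 CPM in control against 35.4 ± 2.68 in TETA (-0.41). The connexin gene Gjb2 (-0.61), the forkhead gene Foxp1 (-0.21) and gelsolin, Gsn (-0.30), were also lower. Cd34, which endothelium also carries, was higher by 0.15. Expression of the genes of this list in other brain cells was not separated out. All 13 striatal neuron markers were called lower in the same libraries, beside 4.28% of all genes, and their part was not tested.

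Of 57 other matrix genes tested, 8 were called lower and 4 higher, with a median of -0.07. Sparc, a collagen-binding glycoprotein, averaged 167 ± 4.42 CPM in control against 137 ± 9.36 in TETA (-0.29). Col8a2 (-0.78), the basement membrane linker Nid1 (-0.43), osteomodulin, Omd (-1.19), and Aebp1 (-0.37) were also lower. Bmp1, the protease that cuts procollagen, was higher, at 42.5 ± 4.36 and 54.9 ± 4.09 CPM (0.37). Matn2 (0.26), Col14a1 (0.65) and Podn (0.35) were the other higher genes. These lists were drawn up with earlier results known, and their counts stand beside the 4.28% and 5.67% of all genes.

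Markers of other cells moved with the groups at 7 weeks. All 13 striatal neuron markers were called lower in TETA; their summed level ran from 721 to 913 CPM in control and from 281 to 397 CPM in TETA. The lowest striatal sum, 281 CPM, was that of TETA replicate 3, the library in which most of the 34 genes were highest among TETA. The part of this difference in the values of the 34 genes was not tested. The summed level of 8 macrophage markers of the brain's borders ran from 13.3 to 15.4 CPM in control and from 9.71 to 13.5 CPM in TETA, with 1 of 7 tested called lower (F13a1) and 4 of 8 under 1 CPM. TETA replicate 1 had the lowest macrophage sum and replicate 3 the highest among TETA, as for most of the 34 genes. Its part was not tested either.

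Markers of tissues around the brain were mostly not called. Of 4 skeletal muscle markers tested, all 4 had a fold below 0 (median -0.61) and 0 were called by edgeR. An unadjusted p under 0.05 was found for 3, beside 24% of all genes (11.1% lower). The summed muscle markers were at 110 CPM in control replicate 2 and at most 20.1 CPM in the other 8 libraries. Of 3 skin epithelium markers tested, 1 was called lower (Krt10, -0.48), with sums of 8.68 to 10.9 CPM in control and 6.19 to 10.3 CPM in TETA. Of 7 bone and cartilage markers tested, 0 were called by edgeR, and the fold was below 0 for 5 and above 0 for 2. An unadjusted p under 0.05 was found for 3, all lower, beside 11.1% of all genes lower at that threshold. Bone and cartilage sums were 36.7 to 50.4 CPM in control and 35.2 to 40.4 CPM in TETA. Of the listed markers, 2 of 7 for muscle, 4 of 6 for skin and 7 of 12 for bone and cartilage were under 1 CPM. The part of these markers in the values of the 34 genes was not tested.

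Vessel markers had no lower calls. Of 12 endothelial markers, 1 was called higher (Flt1) and none lower, with sums of 254 to 276 CPM in control and 259 to 283 CPM in TETA. Of 12 mural cell markers, 0 were called by edgeR. An unadjusted p under 0.05 was found for 5, of which 3 were higher, beside 24% of all genes. Mural log2 fold changes ran from -0.40 to 0.22 with a median of 0.14. Choroid plexus markers had 11 of 15 genes under 1 CPM, sums of 283 to 389 CPM in control and 282 to 291 CPM in TETA, and 1 lower gene (Clic6). Of 5 blood markers tested, 0 were called by edgeR and 0 had an unadjusted p under 0.05.

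**Figure D3:**
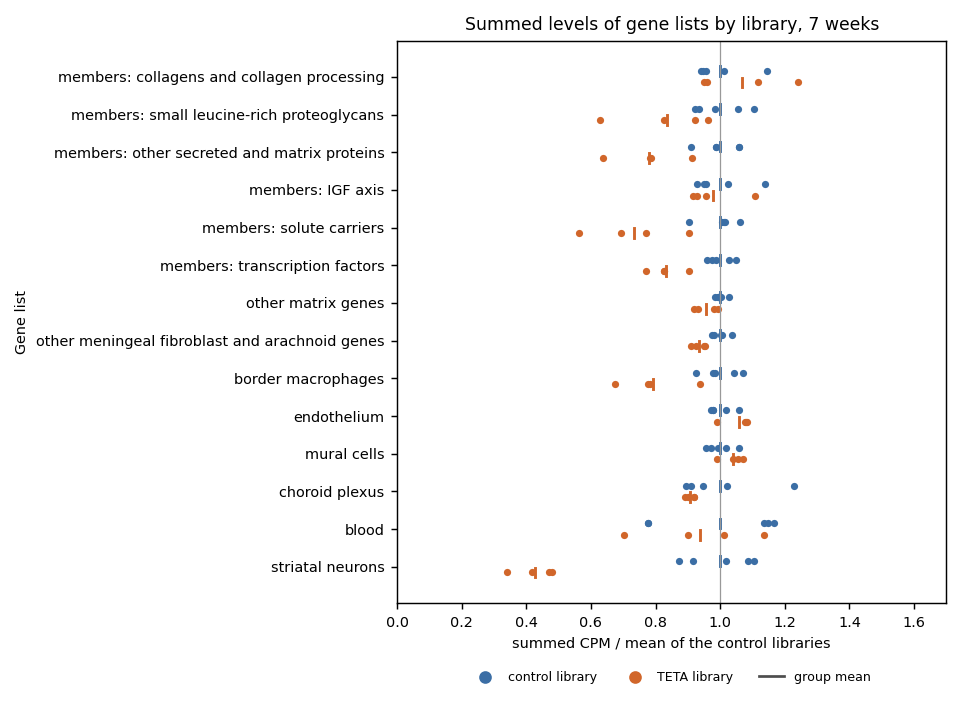
Summed CPM of gene lists in each 7-week library, over the mean of the 5 control libraries. Blue points are control and orange points TETA libraries, with group means as short lines. The striatal markers lie furthest below 1 in TETA, the solute carriers and other secreted proteins lie below, and endothelium and mural cells lie near 1.

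The comparison at E18.5 sets TETA against control in the embryo. Of the 26 genes tested, 0 were called by edgeR, as over all 13794 genes, of which 0 (0%) were called. DESeq2 called 0 of the 26 and 10 of all genes. At an unadjusted p under 0.05 there were 2 genes, against 4.78% of all genes: Mrc2, at 4.92 ± 0.396 CPM in control and 6.63 ± 0.746 in TETA (0.42), and Col6a1, at 5.69 ± 0.462 and 4.60 ± 0.232 CPM (-0.30). Both had the opposite sign at 7 weeks. The fold was below 0 for 6 of 26 genes, where it was for 51.8% of all genes, and the median was 0.08. Without TETA replicate 3-2 it was below 0 for 12 of 26, and the median was 0.03. Without control replicate 3-1 it was below 0 for 5 of 26, and the median was 0.14.

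Control and TETA overlapped for all 26 genes tested, and of all genes only 0.13% had TETA wholly above control and 0.181% wholly below. Col3a1 ran from 1.64 to 5.46 CPM in control with a median of 3.41, and from 3.44 to 8.12 CPM in TETA with a median of 3.77. Its log2 fold change was 0.43 (SE 0.22), and the highest TETA library was replicate 3-2. Fmod ran from 0.286 to 1.11 CPM in control (median 0.454) and from 0.458 to 2.43 CPM in TETA (median 0.628). The log2 fold change of 0.69 (SE 0.41) again had replicate 3-2 at the top. Ptgds ran from 0.720 to 6.62 CPM in control (median 2.48) and from 0.801 to 15.1 CPM in TETA (median 2.58), a log2 fold change of 0.70 (SE 0.53). The group medians lay close together. Without TETA replicate 3-2 the log2 fold changes were 0.18 for Col3a1, 0.14 for Fmod and -0.19 for Ptgds. Without control replicate 3-1 they were 0.62, 0.99 and 1.165.

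Slc6a20a, the 1 solute carrier tested, ran from 0.327 to 1.11 CPM in control (median 0.847) and from 0.498 to 1.35 CPM in TETA (median 0.567), at -0.21 (SE 0.29). Its log2 fold change was -0.54 without TETA replicate 3-2 and -0.09 without control replicate 2-2. Igf2 ran from 0.851 to 1.53 CPM in control (median 1.35) and from 0.374 to 2.66 CPM in TETA (median 1.04), at 0.16 (SE 0.30). The TETA libraries of Igf2 spanned the control range on both sides. Leaving out 1 library moved its log2 fold change between -0.11 (without TETA replicate 1-2) and 0.33 (without TETA replicate 3-1). Foxd1 ran from 0.196 to 0.667 CPM in control (median 0.461) and from 0.249 to 0.793 CPM in TETA (median 0.552), at 0.27 (SE 0.30). Crabp2 ran from 0.814 to 1.87 CPM in control (median 1.21) and from 0.801 to 1.76 CPM in TETA (median 1.07), at -0.12 (SE 0.21). The groups covered nearly the same range for both genes. Leaving out 1 library gave Foxd1 0.11 (without TETA replicate 3-2) to 0.43 (without control replicate 3-1), and Crabp2 -0.29 (without TETA replicate 2-2) to 0.02 (without control replicate 3-1).

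**Figure D4:**
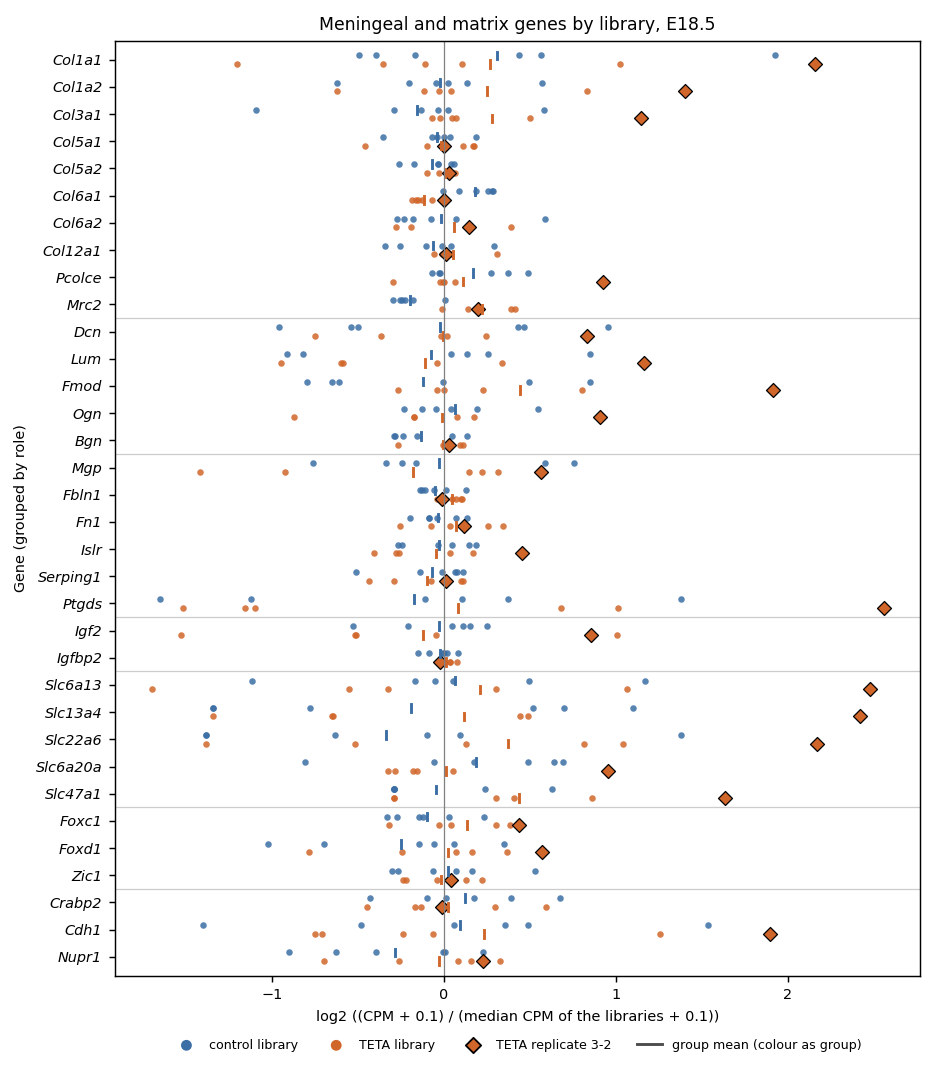
Each library's level of the 34 genes at E18.5, as log2 of CPM plus 0.1 over the median library plus 0.1. Blue points are the 6 control and orange points the 6 TETA libraries, short lines are group means and the diamond is TETA replicate 3-2. The diamond is the highest point for 17 genes, among them Ptgds, Col1a1, Fmod and all 5 solute carriers.

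In 1 embryonic library many of these genes were high. TETA replicate 3-2 was the highest of the 12 libraries for 17 of the 34 genes, and for 11 of the 26 tested, where it was the highest for 4.84% of all genes tested. Its level over the median of the other 11 libraries had a median of 2.68 for the 16 of those 17 with a ratio (1.40 to 20.2) and of 1.04 for the other 17 (0.983 to 1.94). This ratio was chosen after seeing the data. The split uses the same library's values, so the gap between these 2 medians follows from it. Ptgds was at 15.1 CPM in this library and at most 6.62 CPM in the others, a ratio of 6.6 to their median. Slc6a13 was at 2.75 CPM against at most 1.05 CPM (7.01), and Slc13a4 at 1.26 CPM, or 27 reads, against at most 0.444 CPM (20.2).

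Col1a1 was at 4.71 CPM in TETA replicate 3-2 and at 3.999 CPM in control replicate 3-1, with the other 10 libraries at most at 2.095 CPM. The ratio of replicate 3-2 to the median of the others was 5.24 for Col1a1, 5.78 for Cdh1, 4.26 for Fmod and 2.74 for Col1a2. Slc47a1 had 6 reads in TETA replicate 3-2, and the median of the other libraries was 0. Igfbp2 (0.985), Fbln1 (0.983), Col5a1 (1.00), Col6a1 (1.00), Bgn (1.03) and Zic1 (1.06) were level with the others in that library. Control replicate 3-1 was the highest control library for 18 of the 34 genes, where 11.5% of all genes had it highest.

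The summed macrophage markers were at 7.88 CPM in TETA replicate 3-2, with the next library at 4.04 CPM, and 7 of the 8 genes were under 1 CPM on average. Their part in the levels of the 34 genes was not tested. The choroid plexus sum of 23.8 CPM in that library lay inside the range of the other libraries, 19.7 to 24.6 CPM. The replicate numbers of the E18.5 labels have 2 parts, and nothing in the labels says what the first part stands for.

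The genes raised in that embryonic library had a common direction at 7 weeks. Of the 17 genes highest in TETA replicate 3-2, all 17 had a fold below 0 in TETA at 7 weeks, 11 were called lower and 0 higher. Of the other 17, 12 had a fold below 0, 5 were called lower and 3 higher. The 3 higher genes, Col5a1, Col6a1 and Col12a1, had ratios of 1.00, 1.00 and 1.02. This comparison puts side by side values from different mice at different ages, and it is a description, since the direction at 7 weeks chose the genes.

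**Figure D5:**
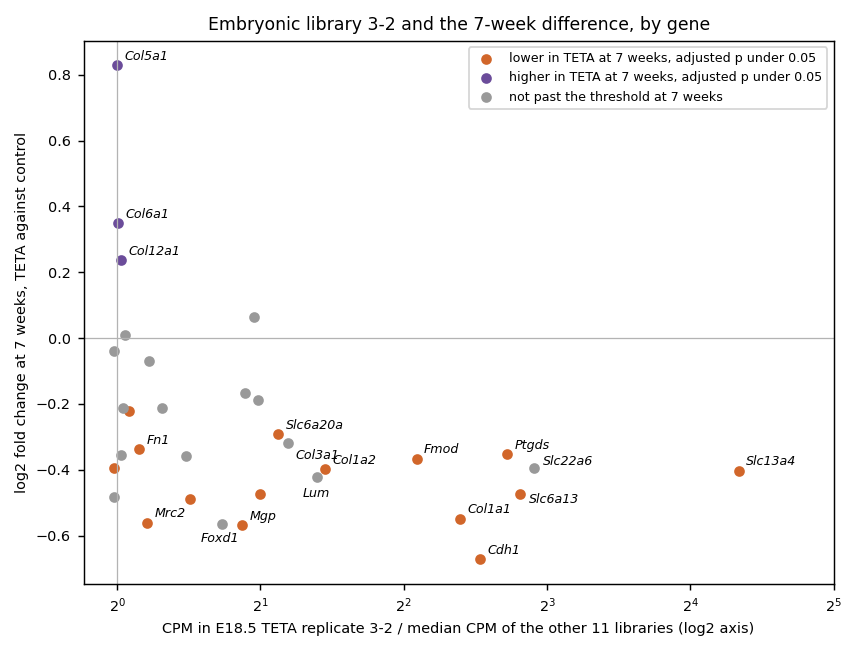
For each gene, CPM in TETA replicate 3-2 over the median of the other 11 embryonic libraries (x axis, log2 scale) against the log2 fold change of TETA over control at 7 weeks (y axis). Orange points were called lower at 7 weeks, purple points higher and grey points were not called; Slc47a1 is not drawn because the median of the other libraries was 0. The 3 purple points sit at a ratio near 1, and points with a ratio above 2 all lie below 0.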

How the data were processed

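RNA was sequenced from mouse brain as stranded mRNA libraries, per the labels' protocols. Each age has a table of raw counts by gene symbol as the authors deposited it, with a column for each library, per the file headers, and STAR 2.7.1a, featureCounts 2.0.1 and the build mm10 stand in the submitters' processing notes. The strand setting of the counting is not given in the sources used here. The 34 genes and all gene lists were chosen with earlier results of these data known.

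E18.5 rows at 0 in control replicate 1-1 and above 0 elsewhere were divided by 11 (4 of the 34 genes). Each age was fitted alone with edgeR 4.0.16 in R 4.3.3: filterByExpr with a minimum count of 10, TMM scaling, the quasi-likelihood test and Benjamini-Hochberg adjustment over all genes tested, at 0.05. The age comparison joined the control columns of both tables. Exonic lengths and overlaps came from GENCODE M21. Alternatives were DESeq2 1.42.0, other filters, no TMM, undivided counts, a replicate block and leaving out each library. On simulated counts, 200 genes drawn at random from all tested were changed. A log2 change of 0.5 was recovered in 79% at 7 weeks (14240 genes) and 86% at E18.5 (13794 genes). In the age comparison (14375 genes) it was 83.5%. These shares are not those of the 34 genes, whose SE at E18.5 ran from 0.040 (Igfbp2) to 0.53 (Ptgds). No replicate pair agreed within counting noise, with a lowest chi-square per gene of 2.30.

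Every one of the 34 genes is named. Levels by library are given, in each role group, for the 3 with the widest log2 fold change at 7 weeks (1 in groups of 3 or fewer) and, as lowest, median and highest, for the widest at E18.5. From the other matrix and meningeal lists, up to 5 higher and 5 lower called genes with the smallest p are named at 7 weeks, and the 3 widest each way for age; 1 gene that this rule would name is not reported here. Any other name was chosen after its values were seen.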

Additional observations from a re-analysis of the deposited data

Results flagged for a closer look

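In groups of 4 to 6 libraries, a library whose gap to its nearest neighbour took more than 0.829, 0.710 or 0.625 of the group's range (Dixon's critical values for 4, 5 and 6 libraries) was singled out. Of 184 groups examined, 17 had such a library. For independent normal values about 1 in 20, or 9.20, would. The groups share libraries and hold genes that vary together, some at few reads, so nothing is read from the gap.

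TETA replicate 3-2 of E18.5 stood above the other TETA libraries for Col3a1 (8.12 CPM, next 5.16), Pcolce (1.87, next 0.984), Fmod (2.43, next 1.07), Ptgds (15.1, next 5.11), Slc6a13 (2.75, next 0.971), Slc13a4 (1.26, next 0.256) and Slc6a20a (1.35, next 0.677). The summed macrophage markers stood apart in it too, at 7.88 CPM with the next at 4.04. Control replicate 3-1 of E18.5 stood above the other control libraries for Col1a1 (3.999 CPM, next 1.49), Col6a2 (4.35, next 3.01), Mrc2 (5.69, next 4.98) and Slc22a6 (0.578, next 0.178). Elsewhere at E18.5, Col12a1 was high in TETA replicate 1-2 (15.3 CPM, next 12.6) and Bgn was low in TETA replicate 1-1 (10.7 CPM, next 12.8).

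At 7 weeks, Slc47a1 was low in control replicate 4 (4.44 CPM, next 5.88). The summed endothelial markers were low in TETA replicate 3 (259 CPM, next 282), and the summed skeletal muscle markers were high in control replicate 2 (110 CPM, next 20.1).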

How the results depend on the processing

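No alternative reversed a direction among called values. At 7 weeks the members called numbered 12 to 18 when each library was left out in turn, lowest without TETA replicate 1, and 927 to 1392 of all genes were called, lowest without TETA replicate 3; these fits test fewer libraries. DESeq2 called 16 of the 34 and 1398 of all 14240 genes (748 higher, 650 lower). At E18.5, leaving out libraries gave 0 to 7 calls over all genes (3 without control replicate 3-2 and 7 without TETA replicate 1-2), and DESeq2 gave 10, of which 9 were higher; the cause was not tested. None of the 34 was called at E18.5 under any alternative run. With counts as deposited, the age comparison called 29 of the 34, 25 higher and 4 lower, with a median of 2.00, beside 12890 of all 14522 genes (6381 higher, 6509 lower).

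The labels give control and TETA libraries shared replicate numbers. With a replicate block, 13 of the 34 (2 higher, 11 lower) and 1072 of all genes were called at 7 weeks, and 0 at E18.5 with the full number or its first part. Same-numbered libraries did not deviate together at 7 weeks, with correlations of -0.12 to -0.036 over 4 pairs (0 best with their own number). At E18.5 the pairs were of either sign, from -0.32 to 0.33 over 6 pairs (1 best), with a mean of 0.029. The ages share no replicate numbers.

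At E18.5, 8 of the 34 genes were below the count filter, and Slc47a1 had 3 reads in control.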

Other observations

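Lox, Loxl1 and Loxl2, lysyl oxidases on the list of other matrix genes, were looked at after their values were seen. At 7 weeks Lox averaged 0.787 ± 0.185 CPM over 5 control libraries against 0.429 ± 0.241 CPM over 4 TETA libraries (SD), at -0.86 on the log2 scale (SE 0.33, adjusted p = 0.11 in edgeR). Loxl1 was at 2.698 ± 0.470 and 1.89 ± 0.308 CPM, a log2 fold change of -0.50 (SE 0.17, adjusted p = 0.071 in edgeR). Neither was called, and the libraries of both groups overlapped for each gene. Loxl2 was below the count filter at 7 weeks and not tested there. In the embryo Lox stood at 0.19 on that scale (SE 0.46), Loxl1 at 0.05 (SE 0.099) and Loxl2 at 0.03 (SE 0.13), and none was called. With age, Loxl1 fell by 1.34 on the log2 scale, while Lox, at 0.609 ± 0.370 and 0.830 ± 0.194 CPM, was not called.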
